A study of Mus musculus with 4 samples.

Results

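A set of 36 genes of the dermal matrix, chiefly collagens and the proteins that fibroblasts lay down with them, were compared between inflamed ears of mutant and of wild-type mice. They were chosen by name, as genes of collagen, elastic fibre, proteoglycan, matricellular protein, crosslinking enzyme and fibroblast receptor, out of 34797 gene names on the array. Every probe that the array files assign to one of them was read, which gave 50 of 55681 probes. All 36 genes had a probe bright enough to test, among 23624 such genes in all, and 35 of them were well above background on the 4 arrays. The exception was Col15a1.

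The mutant group was 2 mice of genotype K14Cre RelAfl/fl, in which a Cre recombinase under the keratin 14 promoter acts on a floxed RelA gene in basal keratinocytes, the dividing cells of the epidermis. RelA, also called p65, is an NF-kB transcription factor subunit. The wild-type group was 2 mice of genotype RelAfl/fl, which carry the floxed gene without the recombinase. The ears of both groups had been treated with 2,4-dinitrofluorobenzene (DNFB), a contact allergen, and were collected 48 h later. Total RNA of ear tissue from each mouse gave 1 one-colour array. All values describe inflamed skin, because untreated ears were not among the samples. Only the mutants carry the recombinase, so carrying it and the deletion cannot be told apart. The promoter is that of a keratinocyte gene, whereas most of the genes described here are made in fibroblasts. Age and sex are not given in the sources used here.

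Fibroblasts secrete procollagens, which are folded with the help of chaperones, trimmed outside the cell and assembled into fibrils that lysyl oxidases crosslink. Small proteoglycans sit on the fibrils and help set their thickness, and elastic fibres of elastin on a fibrillin scaffold give the skin recoil. Matricellular proteins such as periostin and tenascin-C carry little load themselves and are known to rise in wounded or inflamed skin. Below the epidermis lies a basement membrane of other collagens, which anchoring fibrils tie to the dermis.

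Levels are given as log2 processed intensity relative to the 75th percentile of the array, so a value of 0 is the signal of that percentile. They compare mice at 1 probe, not genes with each other. A difference is the mutant mean minus the wild-type mean on this log2 scale, with limma's moderated standard error (SE, n = 2 mice per group). The median intensity of an array was 48.8 and 47.2 in mutant mice 1 and 2, against 54.6 and 48.8 in wild-type mice 1 and 2, and 0 spots were saturated. The array of mutant mouse 2 stood apart from the other 3, with a score of 55.6 on principal component 1, which held 58.8% of the variance, where the others lay between -31.5 and -7.16. A corner of this array held dark spots, in 3 tiles of 10 by 10 spots by the rule used, with 0 of the 50 probes in them. By a wider rule chosen after seeing the data the corner held the only probes of Postn and Col3a1. Rela, the targeted gene, stood at 4.59 and 4.72 in the mutants and at 4.48 and 4.60 in the wild types (difference 0.11 ± 0.12, limma adjusted p = 0.887). The labels do not say which exons were removed, and RNA of whole ears includes cells that the promoter does not reach, so this value does not check the deletion.

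No matrix gene differed between mutant and wild-type ears at the threshold used. At an adjusted p under 0.05 with limma, 0 of the 36 genes were called, where the same test called 0.0169% of all genes (4 of 23624), and the smallest adjusted p among the 36 was 0.741. At an unadjusted p under 0.05, 1 of the 36 passed at its brightest probe, against 6.51% of all genes. This was Col15a1, whose mutant values were not above background and which met the filter only through the wild types, so its p is no test of a level in the mutants. With normexp background correction limma's unadjusted p was 0.792 for Col15a1 and 0.0271 for Postn, and with the trended, robust variance model it was 0.101 and 0.0199. A second, dimmer probe of Sparc, not part of the count, had a limma unadjusted p of 0.00141 (adjusted 0.442). For the mean of Sparc's probes limma's unadjusted p was 0.0235 (adjusted 0.69). The direction was mixed, with 21 of the 36 genes above 0 and 15 below, where 53.5% of all genes lay above 0. The median difference over the matrix genes was 0.04 and that over all genes 0.01. With 2 mice against 2, an exact permutation test cannot reach 0.05. The p-values of limma set a difference against the spread between these mice only. That spread is moderated with a prior over all genes (2.5 prior and 2 residual degrees of freedom).

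At the brightest tested probe, which stands for each gene here, the differences were small as well as not significant. Their median size, whatever the sign, was 0.0876 for the 36 genes and 0.116 for all genes, and 27 of the 36 were under 0.15. The 95% interval of the difference lay inside a 2-fold change in either direction for 35 of the 36 genes, all but Col15a1, where 89.7% of all genes met this. Inside a 1.5-fold change it lay for 27 of the 36, where 64.9% of all genes met this. For the other 9, among them Postn, Tnc, Thbs1, Lox and Col18a1, the interval reached past 1.5-fold. These counts leave out further probes of a gene. At such probes the intervals of Sparc (-1.05 to -0.47) and Tnc (-0.18 to 1.01) also reached past 2-fold. In whole ears, fewer cells of a type and less RNA per cell cannot be told apart.

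**Figure D1:**
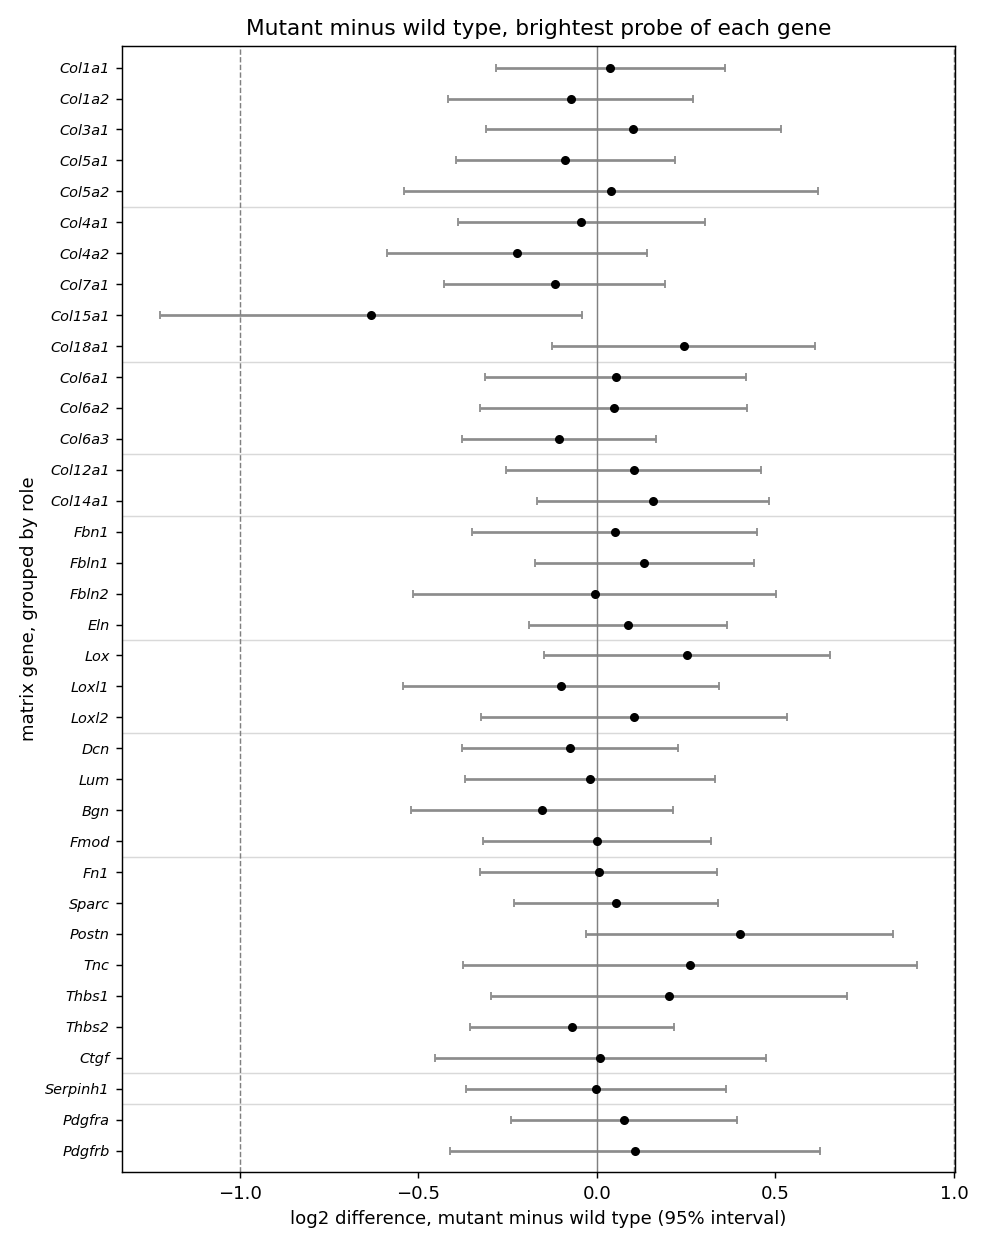
Each row is a matrix gene, grouped by role from fibrillar collagens at the top to PDGF receptors at the bottom, with the log2 difference between mutant and wild-type ears as a point and its 95% interval as a bar. The brightest tested probe stands for each gene. The dashed lines mark a 2-fold change, and only the interval of Col15a1 (difference -0.63) reaches past one of them. Its mutant values were not above background. Postn (0.40) has the highest point.

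**Figure D2:**
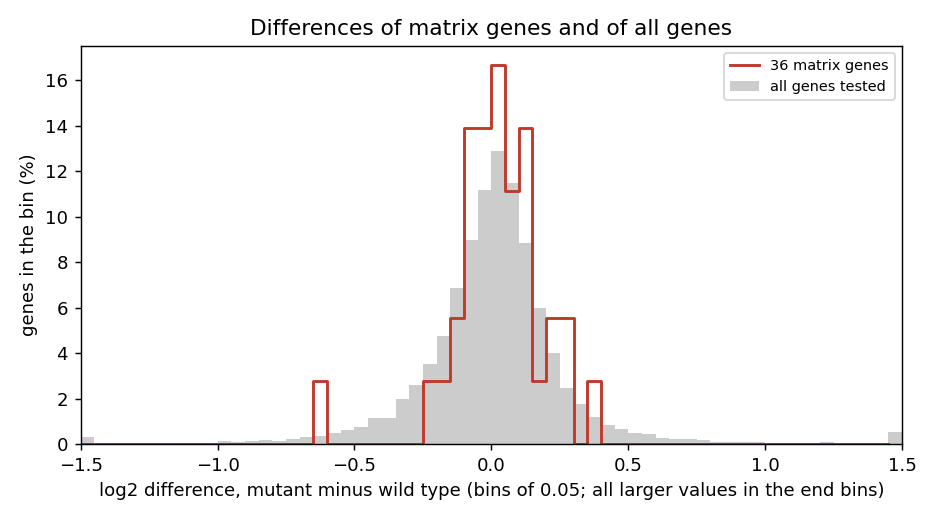
The share of genes (%) is plotted against the log2 difference, mutant minus wild type, in bins of 0.05, with the 36 matrix genes as a line and all 23624 tested genes as grey bars. The matrix genes lie between -0.63 and 0.40, with 27 of 36 within 0.15 of 0, where 14234 of all 23624 genes lie.

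In the median, the gap between the 2 mice of a group was larger than the size of the difference between group means (0.0876), and over all genes too (0.116). Single mice vary more than means of 2 mice, so this order says nothing about genotype. The gap between the 2 mutant mice had a median of 0.225 over the 36 genes and that between the 2 wild-type mice one of 0.115. Over all genes these gaps were 0.143 and 0.153. Both mutant values lay above both wild-type values for 6 of the 36 genes, where 18.9% of all genes did so. Both lay below for 5 of the 36, where 17.4% of all genes did so. Col15a1, which met the filter only through the wild types, is 1 of these 5. The difference was larger than the gap within either group for 5 genes, Col15a1, Col6a3, Fbln1, Eln and Postn, where 22.8% of all genes met this. Summed on the linear scale, in units of the 75th percentile, the signals of the 36 genes came to 1120 and 1120 in the mutants, against 1090 and 1130 in the wild types. The brightest probes, those of Sparc, Dcn and Col1a2, weigh most in this sum.

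**Figure D3:**
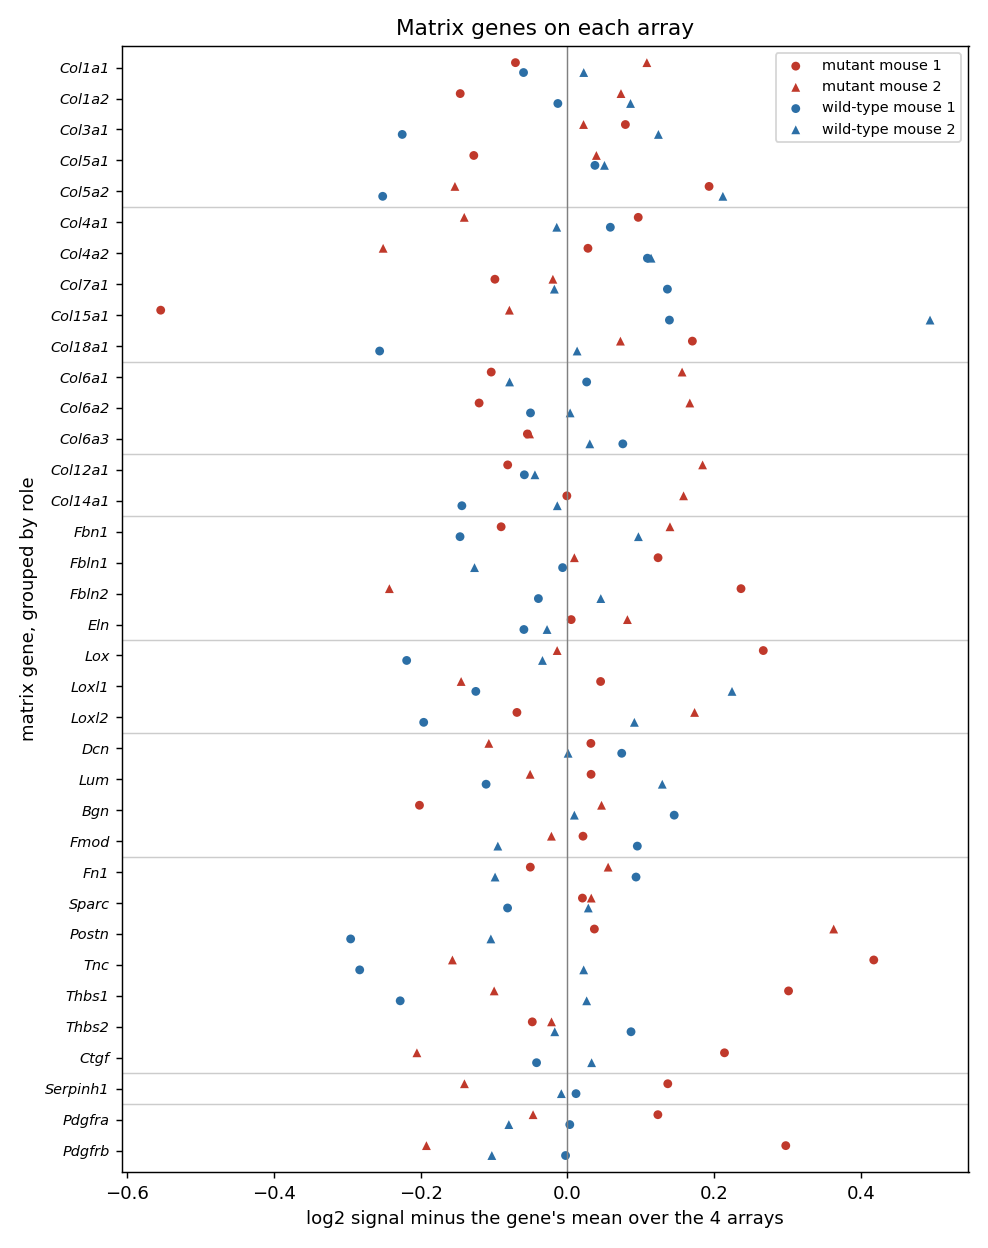
Each point is a mouse, and the horizontal axis gives the log2 signal of the gene minus its mean over the 4 arrays, for mutant mice (red) and wild-type mice (blue). Red and blue points intermix in most rows, while in the row of Col15a1 both mutants (-5.86 and -5.39) lie below both wild types (-5.17 and -4.82), and in that of Postn both mutants (5.07 and 5.40) lie above both wild types (4.74 and 4.93).

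Among the 5 fibrillar collagens, 3 differences were above 0 and 2 below, and in none of the 5 did the groups separate. Col3a1, the type III collagen that runs with type I in dermal fibres, had the largest difference of these genes. It stood at 6.11 and 6.05 in the mutants, against 5.80 and 6.15 in the wild types (0.10 ± 0.16, limma adjusted p = 0.925). The mutant values lay between those of the 2 wild-type mice, and wild-type mouse 1 was the low one. Col1a1, the alpha 1 chain of type I collagen, the main fibre of the dermis, stood at 5.59 and 5.77 in the mutants and at 5.60 and 5.68 in the wild types. Its partner chain Col1a2 stood at 6.83 and 7.05 in the mutants and at 6.96 and 7.06 in the wild types. For the type I pair the differences were 0.04 ± 0.12 and -0.07 ± 0.13, with overlapping groups for both chains. Col5a1 and Col5a2, chains of the type V collagen found in the core of fibrils, differed by -0.09 ± 0.12 and 0.04 ± 0.22.

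With Col15a1 included, the basement membrane and anchoring collagens had 4 of 5 differences below 0, with a median of -0.118. Col15a1 is 1 of the 4 and met the filter only through the wild types, so the count is not read as a shared direction. Col4a1 and Col4a2 encode the chains of the type IV network. Col4a2 stood at 1.32 and 1.05 in the mutants, against 1.41 and 1.41 in the wild types (-0.22 ± 0.14, limma adjusted p = 0.862). Both mutants were lower, but the gap between the 2 mutant mice exceeded the difference. Col4a1 was printed as 10 spots per array, and its means were 1.5 and 1.27 in the mutants and 1.46 and 1.39 in the wild types. The groups overlapped, since mutant mouse 1 was the highest of the 4 and mutant mouse 2 the lowest. The SD between the 10 spots was 0.0646 and 0.0558 on the mutant arrays and 0.0337 and 0.0542 on the wild-type ones, so that the gap between the mutant mice was several times the spread of spots on an array. Col7a1, the collagen of anchoring fibrils, made by keratinocytes as well as fibroblasts, stood at 3.60 and 3.68 in the mutants and at 3.84 and 3.68 in the wild types (-0.12 ± 0.12). Mutant mouse 2 and wild-type mouse 2 had all but the same value. Col18a1, the collagen of basement membranes whose end piece is endostatin, went the other way, at 3.31 and 3.21 in the mutants and 2.88 and 3.15 in the wild types (0.24 ± 0.14, limma adjusted p = 0.852). Its second probe gave 0.20, at 2.898 and 2.768 in the mutants and 2.488 and 2.775 in the wild types, so the groups overlapped there. Wild-type mouse 1 was the lowest at both probes.

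**Figure D4:**
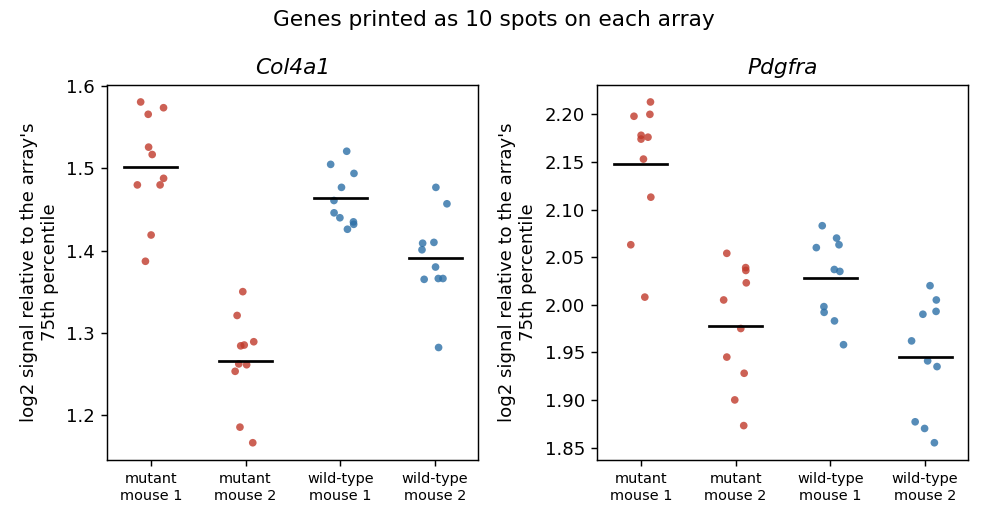
Each point is 1 of 10 spots of the same probe on an array, and the bar is their mean, as log2 signal relative to the array's 75th percentile, for Col4a1 and Pdgfra in mutant (left) and wild-type (right) mice. The means of Col4a1 (1.5 and 1.27 in mutants, 1.46 and 1.39 in wild types) and of Pdgfra (2.15 and 1.98 in mutants, 2.03 and 1.95 in wild types) show the mutant mice further apart than the wild types, with Col4a1 spots from 1.39 to 1.58 in mutant mouse 1 and from 1.17 to 1.35 in mutant mouse 2.

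Col15a1, a collagen of vessel and muscle basement membranes related to Col18a1, was the only one of the 36 genes near background, so its difference is not ranked with the others. At its tested probe (chr4:47325273-47325332, mm9) it stood at -5.86 and -5.39 in the mutants and at -5.17 and -4.82 in the wild types. The spots were well above background on both wild-type arrays and on 0 of the 2 mutant arrays. The mutant level is therefore known only as an upper bound. On each array it was the lowest signal called well above background or the spot's own signal, whichever was higher. This bound lay 1.27-fold below the measured wild-type mean. It carries no error, and the gene met the filter through those same wild-type values, so it is no evidence of a lower level in the mutants. The measured difference was -0.63 ± 0.22 (limma adjusted p = 0.741). It was -0.03 with normexp background correction, and leaving out each mouse in turn gave -0.87 to -0.40. The other probes of the gene were not well above background on both arrays of either group. One of these lies at chr4:47283786-47283845 on the plus strand of mm9 and is shown because it reads the triple helix that makes the protein a collagen. In capitals are the codons that begin with GG, which encode glycine and stand at every 3rd codon, 6 times in the probe.
Col15a1 probe A_55_P2060386: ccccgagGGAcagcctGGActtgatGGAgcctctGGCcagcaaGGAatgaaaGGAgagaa
On this probe the mutants stood at -5.19 and -4.87, against -4.97 and -5.44 in the wild types, so the groups overlapped and the mean ran the other way from that of the tested probe. The remaining probe gave -6.36 and -6.03 in the mutants and -4.94 and -6.41 in the wild types, again with overlap.

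The chains of type VI collagen, which forms beaded microfibrils around cells, differed by about their standard errors or less. Col6a3 stood at 3.94 and 3.94 in the mutants and at 4.07 and 4.02 in the wild types (-0.11 ± 0.10, limma adjusted p = 0.885). Both mutants were lower and nearly equal, but the size was that of the standard error. Col6a1 and Col6a2 differed by 0.05 ± 0.14 each. A second probe of Col6a2 gave -0.11. Of the fibril-associated collagens, which decorate the surface of type I fibrils, Col14a1 stood at 2.07 and 2.23 in the mutants and at 1.93 and 2.06 in the wild types (0.16 ± 0.12, limma adjusted p = 0.876). The groups were separated by a narrow margin, and a second Col14a1 probe gave -0.06. Col12a1 differed by 0.10 ± 0.13.

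Elastic fibre genes were likewise close. Fbln1, a fibulin of elastic fibres and basement membranes, stood at 1.61 and 1.49 in the mutants, against 1.48 and 1.36 in the wild types (0.13 ± 0.12, limma adjusted p = 0.882). The mutants were higher by a small margin at this probe, while the other probes of Fbln1 gave -0.04 and 0.04. Eln, the elastin gene, stood at 0.08 and 0.16 in the mutants and at 0.02 and 0.05 in the wild types (0.09 ± 0.10). Fbn1, the fibrillin of microfibrils, differed by 0.05 ± 0.15 and Fbln2 by -0.01 ± 0.19. Of the enzymes that oxidise lysines so that collagen and elastin chains crosslink, Lox stood at -0.97 and -1.25 in the mutants and at -1.45 and -1.27 in the wild types (0.25 ± 0.15, limma adjusted p = 0.857). Mutant mouse 2 and wild-type mouse 2 were all but equal, and a second Lox probe gave 0.11. Loxl1, an oxidase with elastin as its best known substrate, differed by -0.10 ± 0.17 and at a second probe by -0.24. The difference of Loxl2 was 0.10 ± 0.16, with 0.04 and -0.01 at its other probes.

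All 4 small leucine-rich proteoglycans lay at or just below 0, with a median of -0.047. Bgn, the biglycan gene, had the largest difference of these, at 1.54 and 1.79 in the mutants and 1.88 and 1.75 in the wild types (-0.15 ± 0.14, limma adjusted p = 0.885). Only mutant mouse 1 was below both wild types. Dcn, the decorin gene, whose protein binds type I collagen and limits fibril growth, stood at 7.93 and 7.79 in the mutants and at 7.97 and 7.90 in the wild types (-0.08 ± 0.11). Lum and Fmod, the lumican and fibromodulin genes, differed by -0.02 ± 0.13 and 0.00 ± 0.12.

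At the brightest probe of each gene, the adhesive and matricellular genes held the highest difference, that of Postn, and 6 of 7 lay above 0. Of these 6, Fn1 (0.01), Ctgf (0.01) and Sparc (0.05) were close to 0 and fell below it under quantile normalization. The count is therefore not read as a shared direction. Postn encodes periostin, a matricellular protein that fibroblasts make in wounds and in allergic inflammation. At its only probe (chr3:54194840-54194899, mm9) it stood at 5.07 and 5.40 in the mutants and at 4.74 and 4.93 in the wild types. Both mutants were above both wild types, by 0.40 ± 0.16 on the log2 scale with a 95% interval of -0.03 to 0.83 (limma adjusted p = 0.787). Leaving out each mouse in turn gave differences of 0.24 to 0.56. The probe lies in the wider corner of the array of mutant mouse 2, in a tile of 48 spots whose 10th percentile of the difference from the other 3 arrays was -5.15 and whose median was -0.06, and mutant mouse 2 gave the highest of the 4 values.

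Tnc encodes tenascin-C, a glycoprotein of healing and inflamed dermis, and was read by a pair of probes. Their sequences are shown because they lie in separate stretches of the gene and gave the same direction. The first spans 764 bases of the genome (chr4:63674248-63675011, minus strand, mm9) with 60 bases of its own, and the second lies at chr4:63643728-63643787.
Tnc probe A_52_P355169: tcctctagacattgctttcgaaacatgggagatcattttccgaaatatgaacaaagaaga
Tnc probe A_55_P2421597: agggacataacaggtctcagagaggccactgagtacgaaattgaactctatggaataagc
At the first probe the mutants stood at 0.00 and -0.57, against -0.70 and -0.39 in the wild types (0.26 ± 0.24, limma adjusted p = 0.885). At the second they stood at -0.58 and -0.91, against -1.41 and -0.91 in the wild types (0.42 ± 0.23). Mutant mouse 1 was the highest of the 4 at both probes and wild-type mouse 1 the lowest. Without mutant mouse 1 the difference at the first probe was -0.03.

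Thbs1, a thrombospondin that can activate latent TGF-beta, stood at 3.59 and 3.19 in the mutants and at 3.06 and 3.32 in the wild types (0.20 ± 0.19). Here too mutant mouse 1 was the high sample. Fn1, the fibronectin gene, stood at 5.51 and 5.61 in the mutants and at 5.65 and 5.46 in the wild types (0.01 ± 0.12), with the mutants inside the range of the wild types. Ctgf, now named Ccn2, a matricellular target of TGF-beta, stood at 6.12 and 5.70 in the mutants and at 5.86 and 5.93 in the wild types (0.01 ± 0.17). Its 2 mutant mice bracketed the wild types. Thbs2 differed by -0.07 ± 0.11.

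Sparc was the 1 gene with a gap of over 0.5 between the differences at its tested probes. Smaller gaps with opposite signs were those of Col6a2, Col14a1, Fbln1 and Loxl2, given above. It encodes osteonectin, a protein that binds collagen and takes part in its assembly. The brighter probe stood at 8.29 and 8.30 in the mutants and at 8.18 and 8.29 in the wild types (0.05 ± 0.11, limma adjusted p = 0.948), with no separation of the groups. The dimmer probe stood at 3.99 and 3.93 in the mutants, against 4.69 and 4.75 in the wild types. That is a difference of -0.76 ± 0.11 with a 95% interval of -1.05 to -0.47, and limma's p adjusted over all tested probes was 0.442. The adjusted p ranged from 0.0475 to 0.862 over the alternative settings, and passed the threshold only with the trended and robust variance model. The brighter probe exceeded the dimmer one by 4.30 and 4.36 in the mutants and by 3.50 and 3.55 in the wild types. Both probes are on the minus strand of chromosome 11 in mm9, the brighter at chr11:55208939-55208998 and the dimmer at chr11:55208003-55208061. Their first 30 bases are given because the probes lie at separate places and gave unlike differences. Why they did so was not tested.
Sparc brighter probe A_55_P2046812: ggctgttccgcctggggataaggtgctaac
Sparc dimmer probe A_55_P2046807: acagcaatgtgaagagcttgacaagtcttt
The dimmer probe has 60 bases, but its place on mm9 covers 59, as it does for 304 of 54847 probes of that length (0.554%). Over all genes with several tested probes, the gap between the difference at a further probe and that at the brightest had a median of 0.108, and 5.01% of 9217 such probes had a gap over 0.5. Among the matrix genes the gap was 0.811 for Sparc and at most 0.217 for the other 10 further probes.

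**Figure D5:**
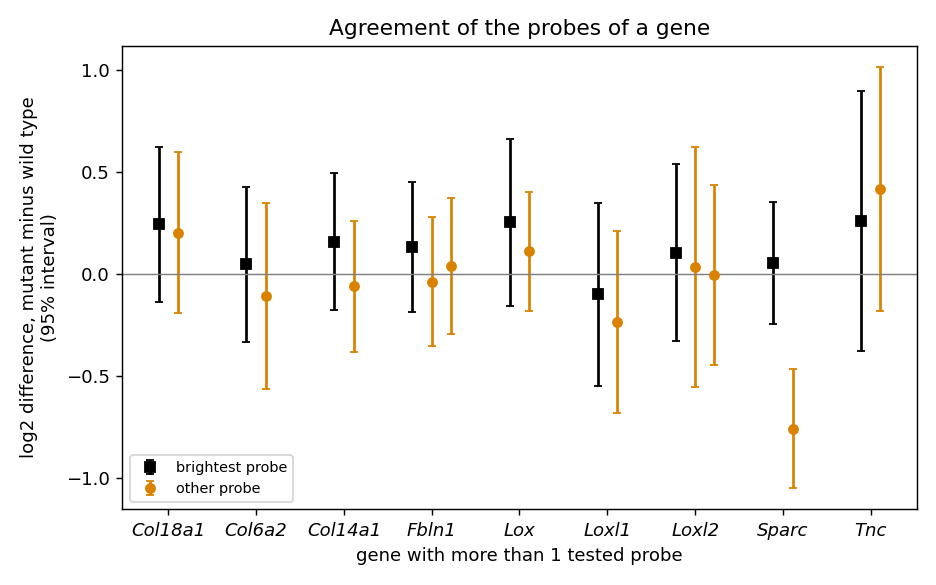
The log2 difference between mutant and wild-type ears (vertical axis, with its 95% interval) is plotted for each tested probe of the 9 matrix genes with several, the brightest as a square and the others as circles. The probes of a gene overlap in their intervals except for Sparc, at 0.05 and -0.76.

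Serpinh1, the collagen chaperone HSP47 that procollagen needs to fold, stood at 3.53 and 3.26 in the mutants and at 3.41 and 3.39 in the wild types (0.00 ± 0.14, limma adjusted p = 0.998). The mutant mice bracketed the wild types. The receptors for platelet-derived growth factor mark fibroblasts (Pdgfra) and pericytes (Pdgfrb). Pdgfrb stood at 1.36 and 0.87 in the mutants and at 1.06 and 0.96 in the wild types (0.11 ± 0.19, limma adjusted p = 0.941), and Pdgfra, the mean of 10 spots per array, differed by 0.08 ± 0.12. In both, mutant mouse 1 was the highest of the 4.

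Genes that fold and process collagen were counted alongside. Of 20 tested genes of this list 0 were called over all genes, 6 lay above 0 and 14 below, and the median was -0.0836. Tll1, a procollagen-trimming protease related to Bmp1, stood at -3.90 and -4.06 in the mutants and at -3.43 and -3.67 in the wild types (-0.43 ± 0.14). Tgm2, a transglutaminase that crosslinks matrix proteins, stood at 2.88 and 2.67 in the mutants and at 3.25 and 2.98 in the wild types (-0.34 ± 0.15). In both genes the mutants were lower without overlap, and neither passed the adjusted test. Of 21 matrix proteases and inhibitors 0 were called, with 7 above 0 and 14 below. Mmp13, a collagenase, stood at -3.23 and -3.35 in the mutants and at -1.81 and -2.12 in the wild types (-1.32 ± 0.15, limma adjusted p = 0.386), the largest difference in that list. Mmp9, a gelatinase whose probe lies in a dark tile of mutant mouse 2, differed by -0.72 ± 0.13 and Mmp3, stromelysin, by 0.51 ± 0.30. Of 23 ligands, receptors and SMADs of TGF-beta and PDGF signalling with their relatives 0 were called, with 11 above 0, 12 below and a median of 0.00. Cyr61, a relative of Ctgf, had the largest difference there, at 2.22 and 1.57 in the mutants and 1.31 and 1.24 in the wild types (0.62 ± 0.24). Of 9 collagen receptors 0 were called, 3 above 0 and 6 below, with Itga2, the alpha 2 integrin chain, furthest from 0 at -0.36.

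Other genes of fibroblasts were present throughout, as 25 of 27 names on that list were tested and those 25 were well above background on the 4 arrays. Of these, 0 were called, 15 lay above 0 and 10 below, with a median of 0.02. Their summed signal was 431 and 424 in the mutants, against 448 and 474 in the wild types. A sum weighs bright genes most, and the brightest on this list, S100a4 (-0.22) and Vim (-0.23), lay below 0. It therefore does not describe the list as a whole, whose median was 0.02. Lists of other cells of the ear moved less evenly. The 14 skeletal muscle genes were all below 0, with a median of -0.22 and sums of 469 and 328 in the mutants against 489 and 433 in the wild types, mutant mouse 2 being the low one. The 9 adipocyte genes were also all below 0 (median -0.28), with sums of 75.6 and 62.1 in the mutants and 82.9 and 77.2 in the wild types. The 9 leukocyte genes summed to 81.3 and 77.2 in the mutants and 93.2 and 87.3 in the wild types, with 8 below 0. The 12 keratinocyte genes summed to 1470 and 1610 in the mutants and 1460 and 1570 in the wild types. This sum too weighs the brightest genes most and hides differences in both directions. Of the 12, 7 lay above 0 and 5 below, with Krt15 (-0.74), Flg (0.50) and Krt1 (0.39) furthest from 0. None of these genes was called by limma over all genes, and the part of tissue makeup in the matrix values was not tested.

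Promoter sequences from RefSeq (GRCm38.p6, 250 bases before to 50 after the start of the gene) were matched for 22 of the 36 genes. The consensus of NF-kB binding was found on either strand in 2 of the 22 (9.09%), Serpinh1 and Thbs2, against 5.14% of 27025 genes with promoter sequences. TATAAA was found in 4 (18.2%), Col3a1, Postn, Thbs2 and Tnc, against 15.7%. The letters CCAAT were in 8 (36.4%), against 41.1%, and the GC box GGGCGG in 13 (59.1%), against 38.2%. None of these motifs contains another, and a match says only that the letters are there.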

How the data were processed

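Per the labels, RNA of whole ears was labelled with Cy3 for one-colour arrays. Per the file headers, Agilent Feature Extraction 10.7.3.1 made the deposited processed intensities on grids of build mm9 (NCBI37), which subtracts background and does not scale arrays to each other. The deposited raw mean and background intensities, per the file headers, carry no such correction, and the deposited flags, values of 0 or 1, mark spots well above background and outliers. The authors' series table gives the deposited linear ratio of processed intensity to the array median, found from the values.

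The 3671 control spots and all outlier spots were left out, log2 processed intensity had the array's 75th percentile subtracted, and spots of a probe were averaged. Probes were tested (33664) where both arrays of a group, or of each, showed them well above background, and the brightest tested probe stood for a gene. Mutant and wild type were compared with lmFit and eBayes of limma 3.58.1 (R 4.3.3, data.table version 1.17.8; figures with matplotlib 3.10.9 and pandas 2.3.3 in python 3.11.15), two-sided, adjusted after Benjamini and Hochberg over 23624 genes at 0.05. Intervals are at 95% with 4.5 degrees of freedom, 2 residual and 2.5 prior. The scripts were tested on simulated data. For Sparc's dimmer probe p was adjusted over all tested probes.

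The genes and lists were chosen with earlier results of these data known. Values on every array were planned for genes whose groups do not overlap with a difference of at least 0.4 in size, the largest difference of each role and genes whose probes differ by over 0.5. Those of further matrix genes are given as description, and up to 3 genes were named per other list. The labels' replicate numbers are not said to pair mice. Accessions gave a current symbol for 35 genes. The files place probes on mm9, and the exon a probe reads is not given here. All 4 arrays lie on 1 slide, and the number of arrays limits the precision. Alternatives covered background correction, normalization, centring, filters, probe choice, variance model, array weights, damaged spots, the replicate block and leaving out each mouse.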

Additional observations from a re-analysis of the deposited data

How the results depend on the processing

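The count of matrix genes past the threshold stayed at 0 under all 19 alternatives, and the number above 0, 21 of 36, ranged from 16 to 24. The median of 0.04 became -0.00867 under quantile normalization, and leaving out each mouse in turn gave -0.00663 to 0.0639, so its sign is not settled. With the replicate block 0 matrix genes were called (smallest adjusted p 0.703, 1 gene called in all), and the same holds for the crossed pairing chosen after seeing the data, 0 genes (smallest adjusted p 0.692). Deviations of same-numbered mice correlated at -0.195 across 23624 genes, which are not independent, so the numbers were not taken as pairs.

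Several directions turned under other settings. With normexp Lum was 0.00241 and Fmod 0.0172, and Col15a1, at -0.633 in the setting used, was -0.0307. Under quantile normalization Col1a1 was -0.0075, Fn1 -0.0474, Sparc -0.00985 and Ctgf -0.0372. With median centring, and equally in the series table, Fbln2 was 0.0087, Fmod 0.0139 and Serpinh1 0.0113. With the percentile over probes detected on all arrays Fn1 was -0.0085 and Ctgf -0.00446. Without a filter on dim probes Col15a1 was read at another probe, at 0.175, and leaving out each mouse gave it -0.871 to -0.396. With the mean of a gene's probes Col6a2 was -0.0303 and Sparc -0.353. With the trended, robust variance model the dimmer Sparc probe, at -0.758, passed (limma adjusted p = 0.0475). Leaving out 1 mouse turned the sign of 21 genes, whose ranges were -0.052 to 0.127 for Col1a1, -0.183 to 0.0371 for Col1a2, -0.073 to 0.276 for Col3a1, -0.192 to 0.272 for Col5a2, -0.162 to 0.0742 for Col4a1, -0.0772 to 0.183 for Col6a1, -0.0969 to 0.19 for Col6a2, -0.0299 to 0.236 for Col12a1, -0.072 to 0.171 for Fbn1, -0.245 to 0.233 for Fbln2, -0.274 to 0.0749 for Loxl1, -0.0394 to 0.248 for Loxl2, -0.138 to 0.101 for Lum, -0.0957 to 0.0943 for Fmod, -0.0908 to 0.101 for Fn1, -0.00178 to 0.107 for Sparc, -0.0262 to 0.548 for Tnc, -0.2 to 0.219 for Ctgf, -0.142 to 0.135 for Serpinh1, -0.00853 to 0.161 for Pdgfra and -0.139 to 0.35 for Pdgfrb. The lone mouse of a group was then assumed to vary like the other group. Over all genes, 4 were called, 14 with the trended, robust model, 80 without mutant mouse 1 and 0 without either wild-type mouse in turn.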

Other observations

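Of 15 epidermal basement membrane genes, which keratinocytes and fibroblasts both make, 0 were called by limma over all genes, with 8 above 0 and 7 below. Fras1 and Frem2, which encode partners in a complex below the epidermis, lay on opposite sides at 0.53 and -0.44. Of 11 myofibroblast and pericyte genes 0 were called and 9 lay below 0, with Kcnj8, a potassium channel gene of pericytes, furthest from 0 at -0.50. Only 1 of the 11 was lower without overlap, where 17.4% of all genes were. Their sums overlapped, at 79.2 and 68.2 in the mutants and 69.3 and 77.4 in the wild types. The count is not read as a shared direction. Of 13 cartilage genes 0 were called and 10 lay above 0, with a median of 0.04. Of 10 endothelial genes 0 were called and 6 lay below 0, with a median of -0.107, and of 6 Schwann cell genes 0 were called and 4 lay above 0.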
